A study of Mus musculus with 6 samples.

Results

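The Hippo pathway effectors and targets described here are 10 genes of the 43548 gene identifiers in the deposited expression table, taken by their symbols. They are the kinases Lats1 and Lats2, the coactivators Yap1 and Wwtr1 (which encodes TAZ), the transcription factors Tead1, Tead2, Tead3 and Tead4, and the target genes Ctgf and Cyr61, now named Ccn2 and Ccn1. All 10 were found and all 10 passed the filter on low values, an average FPKM of 1 or more across the 6 libraries.

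The samples were Met-1 TripZ-200c cells, a mouse mammary carcinoma line from a late-stage tumour of an FVB/nJ mouse with the MMTV-PyMT transgene. The cells are a single clone carrying a lentiviral pTripZ vector, marked with RFP, in which doxycycline (Dox) switches on the precursor of miR-200c. They had been sorted for absence of RFP without Dox and then for intermediate RFP with Dox. One group of 3 libraries came from cells given vehicle (water) and the other group of 3 from cells given 1 µg/mL Dox, both for 48 h. The cells were plated in triplicate. It is not clear whether the 3 cultures of a group came from separate experiments, so p-values measure the spread between these samples. No library of cells with the empty vector was among them, so Dox itself and miR-200c cannot be told apart as the source of a difference. mRNA levels are given as FPKM, a fragment count scaled to transcript length and sequencing depth. This scaling allows an approximate comparison between genes and between libraries. The FPKM do not give read numbers. Relative depth, estimated from ratios of very low FPKM between libraries and scaled to 1 in replicate 1 without Dox, was 0.916 and 1.30 in the other replicates without Dox and 0.985, 1.49 and 1.12 with Dox.

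In the Hippo pathway the kinases MST1 and MST2, with their scaffold SAV1, activate LATS1 and LATS2. The LATS kinases phosphorylate YAP and TAZ, which are then held in the cytoplasm or degraded. Unphosphorylated YAP and TAZ enter the nucleus, bind TEAD factors and raise transcription of genes such as Ctgf and Cyr61. Loss of epithelial polarity and cell contacts is known to free YAP and TAZ from this control, and both are studied in mammary carcinoma as drivers of growth and invasion. Much of the control acts on protein phosphorylation and location, which mRNA levels do not measure.

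The agent induced by Dox is miR-200c, and its mature sequence is shown because the seed decides which mRNAs it can pair with. The sequence of mmu-miR-200c-3p is from RefSeq, build GRCm38.p6, chr6:124718324-124718346 on the minus strand, with the seed (bases 2 to 8) in capitals.
mmu-miR-200c-3p: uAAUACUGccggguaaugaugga
The sequence complementary to the seed, CAGTATT, was searched in the longest annotated 3′ UTR of each gene. Of the 10 members, Lats2 and Tead1 held it. Lats2 had 2 matches in 1626 bases and Tead1 had 1 match in 8147 bases. The target sites are shown with the match in capitals, from the strand of the mRNA. None of the 3 matches was followed by an A, the base that makes a longer type of site.
Lats2, bases 161 to 167 of the 3′ UTR: ctgcattaaaaCAGTATTtttaaaaaat
Lats2, bases 1460 to 1466: attgtgacttaCAGTATTctcgctattt
Tead1, bases 7704 to 7710: tcccggcagtaCAGTATTctcgtactca
Among all tested genes with an annotated 3′ UTR, 16.1% of 10798 held at least 1 match. A match is a description of the letters and does not show that the miRNA binds there.

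As a check on the labels, 2 well-known targets of miR-200c were lower with Dox. Zeb1 had 41.0, 42.1 and 42.3 FPKM in cells without Dox and 19.8, 20.3 and 23.6 FPKM in cells with Dox. Zeb2 ranged from 27.9 to 30.7 FPKM without Dox and from 7.82 to 9.04 FPKM with Dox. Both are transcription factors that repress epithelial genes, and neither gene had overlapping groups (log2 fold changes -0.98 and -1.81, limma adjusted p = 3.62e-04 and 4.48e-05). Krt18, an epithelial keratin, rose (log2 fold change 2.05, adjusted p = 3.61e-06), and the mesenchymal filament gene Vim fell (log2 fold change -0.35, adjusted p = 5.66e-04). The Vim adjusted p was 0.0514 with quantile normalization. Krt8 and Cdh1 (E-cadherin) were below the filter. Krt8 was at 0.186 to 0.388 FPKM without Dox and 0.602 to 0.918 FPKM with Dox. Cdh1 was at 0.0419 to 0.0776 FPKM without Dox and 0.554 to 1.24 FPKM with Dox. Both were thus higher with Dox, at low values. In the same model without the filter, Cdh1 had an adjusted p of 0.0125 and Krt8 of 0.0972. The Mir200c gene is listed at 0 in every library, and mature miRNAs are too short for libraries of this kind.

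Markers of cells that should be absent from a carcinoma line were low. Of 8 such genes, 6 were below the filter (Ptprc, Adgre1, Csf1r, Pecam1, Kdr and Tek), and Adgre1 is listed at 0 in all 6 libraries. Cdh5, an endothelial cadherin, was at 4.23 to 4.66 FPKM without Dox and 3.95 to 4.37 FPKM with Dox. Cd68, which many cell types express in lysosomes, was the most abundant, at 6.31 to 11.3 FPKM without Dox and 6.54 to 7.55 FPKM with Dox. Neither passed the test.

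Of the 10 members, 5 passed the test, with 3 higher and 2 lower with Dox. Cyr61, Ctgf and Tead1 rose, and Lats2 and Wwtr1 fell. Across all 12879 genes tested, limma called 15% at an adjusted p under 0.05, with 7.06% higher and 7.97% lower. These 1935 genes became 1266 without replicate 2 without Dox and 1250, 1254 and 1069 without replicate 1, 2 or 3 with Dox. The 3 values with Dox lay entirely above or below the 3 without Dox in 8 of the 10 members, against 35% of the 12875 genes with 6 values. The members were named with earlier results of these data known, so their count is not a test. Their median absolute log2 fold change was 0.27, against 0.13 over all genes. All 10 changes were below 1.5-fold.

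**Figure D1:**
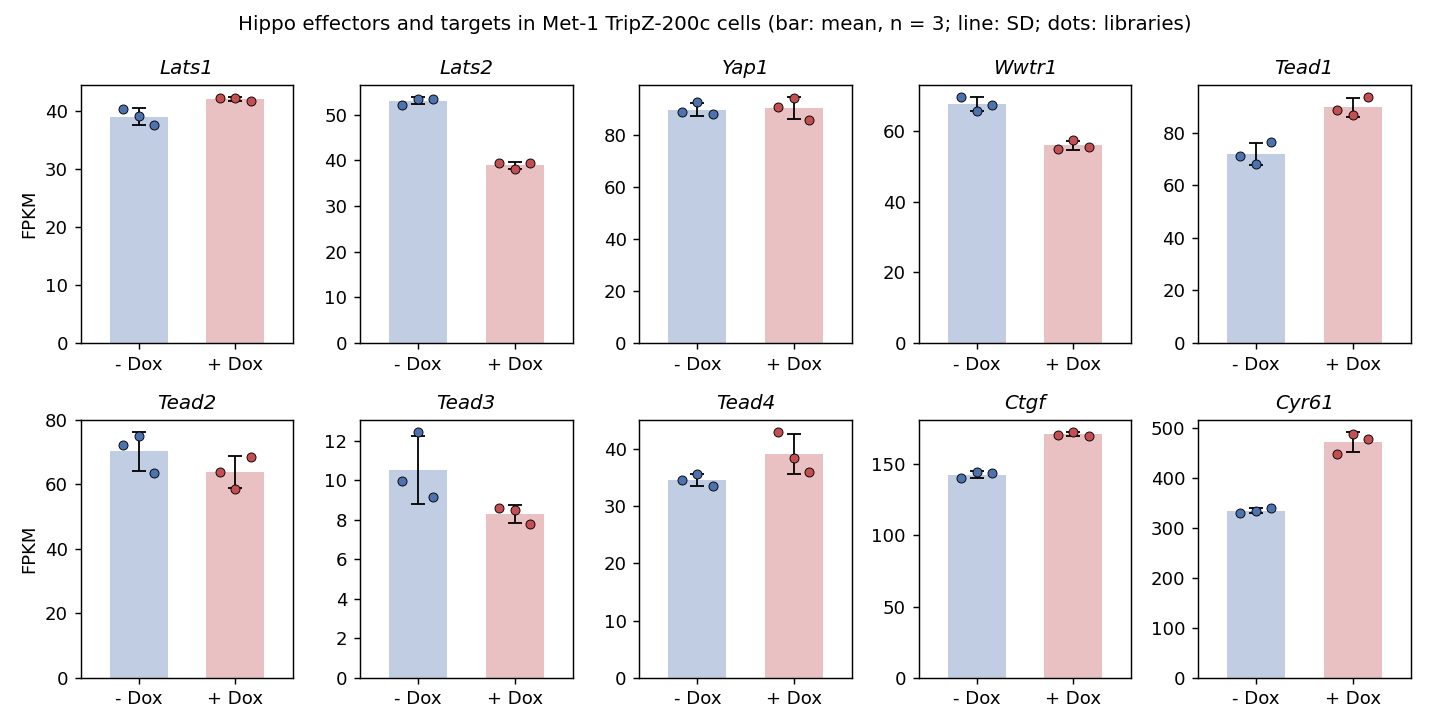
FPKM of the 10 genes without and with Dox, with bars for the mean, lines for the SD (n = 3) and 1 dot per library; each panel has its own axis from 0. The dots of Lats2, Wwtr1, Tead1, Ctgf and Cyr61 separate by more than the SD of either group, while those of Yap1 and Tead2 overlap.

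Lats1 and Lats2 encode the kinases that phosphorylate YAP and TAZ. Lats2 (ENSMUSG00000021959, chr14:57689662-57758388, minus strand, GRCm38) had 52.2, 53.5 and 53.4 FPKM in cells without Dox and 39.4, 38.0 and 39.3 FPKM in cells with Dox. Every library with Dox was below every library without Dox, and the values within a group lay close together. The means were 53.0 ± 0.758 and 38.9 ± 0.764 FPKM (SD, n = 3 each), with a log2 fold change of -0.45 (standard error 0.0410, limma adjusted p = 7.65e-04). The mRNA of Lats2 fell by 26.6%, the steepest drop among the 10 members. The call held in all 15 alternative analyses. An overlapping gene model on the same strand, Gm49361, shares 56.9% of the longest Lats2 transcript, so reads of both could have been counted as Lats2. An antisense pseudogene, Gm20430, was at 3.68 and 8.15 FPKM in replicates 1 and 2 without Dox and is listed at 0 in the other 4.

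Lats1 (ENSMUSG00000040021, chr10:7681214-7716460, plus strand) had 40.4, 39.2 and 37.5 FPKM in cells without Dox and 42.2, 42.2 and 41.6 FPKM in cells with Dox. The groups did not overlap, with the libraries with Dox slightly higher. The log2 fold change of 0.11 (95% confidence interval -0.000526 to 0.22) did not pass the test (adjusted p = 0.173). The ratio of Lats1 to Lats2 FPKM was 0.774, 0.732 and 0.702 without Dox and 1.07, 1.11 and 1.06 with Dox. By FPKM, Lats2 was thus the more abundant of the pair in each library without Dox and the less abundant in each library with Dox. Reads of Gm49361 could be part of the Lats2 values.

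Yap1 and Wwtr1 encode YAP and TAZ, related coactivators that have no DNA-binding domain and act through TEAD factors. Yap1 (ENSMUSG00000053110, chr9:7931999-8004596, minus strand) had 88.9, 92.6 and 88.0 FPKM in cells without Dox and 90.9, 94.4 and 86.0 FPKM in cells with Dox. The groups overlapped fully, and both the highest and the lowest value were from cells with Dox. The log2 fold change was 0.01 (95% confidence interval -0.10 to 0.12, adjusted p = 0.930), and its sign turned when replicate 3 without Dox or replicate 2 with Dox was left out. Of the genes tested, 96.3% had a larger absolute log2 fold change.

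Wwtr1 (ENSMUSG00000027803, chr3:57455649-57575910, minus strand) had 69.6, 65.6 and 67.5 FPKM in cells without Dox and 54.9, 57.4 and 55.5 FPKM in cells with Dox. All 3 values with Dox lay below the lowest without Dox. The means were 67.5 ± 1.99 and 55.9 ± 1.28 FPKM (SD, n = 3 each), with a log2 fold change of -0.27 (standard error 0.0420, limma adjusted p = 0.00672). Wwtr1 thus fell by 17.2%. No match to the miR-200c seed was found in its 3′ UTR of 3277 bases, nor in the 2498 bases of Yap1. The ratio of Yap1 to Wwtr1 FPKM was 1.28, 1.41 and 1.30 without Dox and 1.65, 1.64 and 1.55 with Dox, without overlap. The sum of both genes was 157.4 ± 1.64 FPKM without Dox and 146.3 ± 5.14 FPKM with Dox (SD, n = 3 each).

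TEAD factors bind DNA and recruit YAP and TAZ to enhancers and promoters, and of the 4 Tead genes only Tead1 passed the test. Tead1 (ENSMUSG00000055320, chr7:112679318-112906807, plus strand) had 71.2, 68.1 and 76.5 FPKM in cells without Dox and 88.8, 86.6 and 93.5 FPKM in cells with Dox. Each library with Dox was above each without Dox. On the log2 scale the change was 0.32 (standard error 0.0548, limma adjusted p = 0.0103), a rise of 24.7%. An unmoderated linear model per gene on log2(FPKM + 1) gave an adjusted p of 0.0536, and the call held in the other 14 alternatives, whose adjusted p ran from 0.00844 to 0.0428 (without replicate 3 with Dox). Tead1 rose, and its 3′ UTR holds the printed match to the seed.

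Tead2 (ENSMUSG00000030796, chr7:45215753-45233644, plus strand) had 72.2, 75.1 and 63.6 FPKM in cells without Dox and 63.7, 58.7 and 68.6 FPKM in cells with Dox. Its groups overlapped, with replicate 3 low without Dox and replicate 3 high with Dox (log2 fold change -0.14, adjusted p = 0.303). The log2 fold change was -0.09 without replicate 2 without Dox, -0.21 without replicate 3 without Dox and -0.08 without replicate 2 with Dox. Tead4 (ENSMUSG00000030353, chr6:128224288-128300823, minus strand) had 34.7, 35.7 and 33.6 FPKM in cells without Dox and 43.0, 38.5 and 36.1 FPKM in cells with Dox. The groups were apart by a narrow gap, and the log2 fold change of 0.17 did not pass (adjusted p = 0.161) and was 0.10 when replicate 1 with Dox was left out.

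Tead3 (ENSMUSG00000002249, chr17:28331671-28350817, minus strand), the least abundant member, had 9.94, 12.4 and 9.16 FPKM in cells without Dox and 8.58, 8.50 and 7.76 FPKM in cells with Dox. All values with Dox were lower, but the spread without Dox was wide. The log2 fold change was -0.33 (95% confidence interval -0.63 to -0.04), with an unadjusted p of 0.0331 and an adjusted p of 0.132. It was -0.20 when replicate 2 without Dox was left out.

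Summed over the 4 genes, Tead mRNA had 188.0, 191.3 and 182.8 FPKM in cells without Dox and 204.2, 192.2 and 206.0 FPKM in cells with Dox. The sums did not overlap, but replicate 2 of each group came close. Tead1 made up 37.9%, 35.6% and 41.9% of the sum without Dox and 43.5%, 45.0% and 45.4% with Dox. The share of Tead2 was 38.4%, 39.2% and 34.8% without Dox and 31.2%, 30.5% and 33.3% with Dox. Tead1 and Tead2 were thus at like levels without Dox, with either one ahead depending on the library, whereas Tead1 was ahead in all 3 libraries with Dox.

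**Figure D2:**
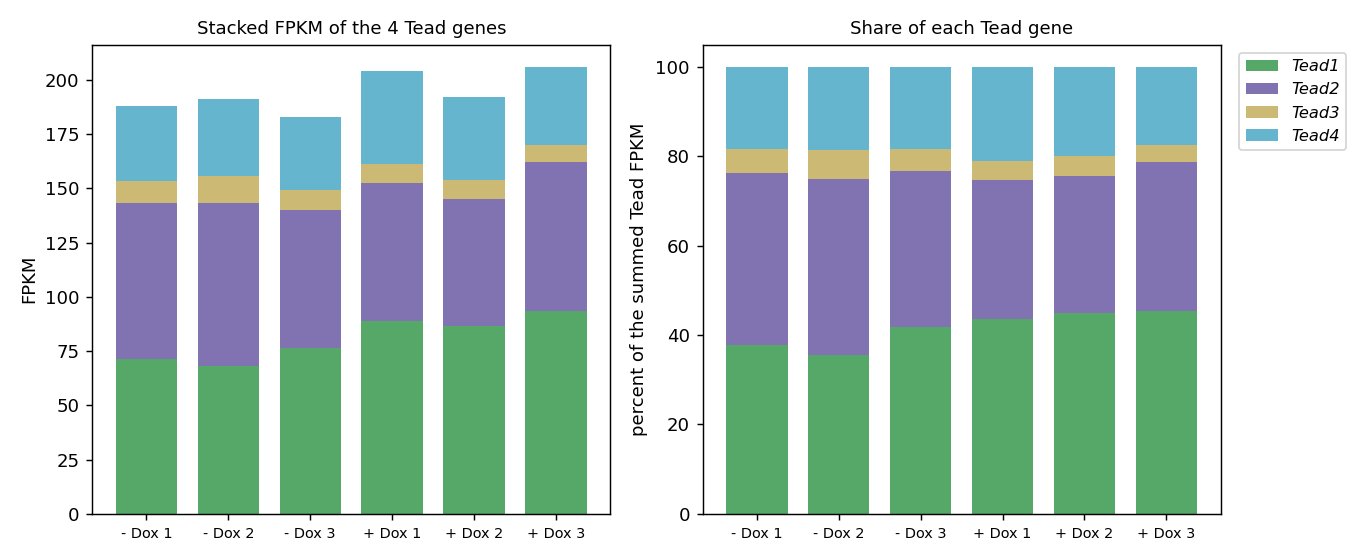
Stacked FPKM of Tead1, Tead2, Tead3 and Tead4 in each of the 6 libraries (left) and the share of each gene in their sum, in percent (right). The Tead1 segment takes 35.6% to 41.9% without Dox and 43.5% to 45.4% with Dox, and Tead3 is the thinnest segment in every library.

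Ctgf and Cyr61 encode secreted matricellular proteins of the CCN family and are the most widely used readouts of YAP and TAZ with TEAD. Cyr61 (ENSMUSG00000028195, chr3:145646976-145649981, minus strand) had 329.4, 334.7 and 339.6 FPKM in cells without Dox and 448.5, 487.6 and 479.1 FPKM in cells with Dox. The lowest library with Dox exceeded the highest without Dox by a margin several times the SD. The means were 334.6 ± 5.11 and 471.7 ± 20.6 FPKM (SD, n = 3 each), with a log2 fold change of 0.49 (standard error 0.0371, limma adjusted p = 3.57e-04), a rise of 40.9%. Cyr61 was the most abundant member in each library, above 97.9% of the genes tested by its mean.

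Ctgf (ENSMUSG00000019997, chr10:24595442-24598683, plus strand) had 140.0, 144.3 and 144.0 FPKM in cells without Dox and 170.4, 172.6 and 170.0 FPKM in cells with Dox. Both groups were tight and did not overlap. The means were 142.8 ± 2.44 and 171.0 ± 1.41 FPKM (SD, n = 3 each), with a log2 fold change of 0.26 (standard error 0.0301, limma adjusted p = 0.00204), a rise of 19.8%. Both calls held in all 15 alternatives. The antisense transcript Gm15270 overlaps Ctgf and shares 14.3% of its longest transcript, at 2.08 to 2.97 FPKM over the libraries. The ratio of Cyr61 to Ctgf FPKM was 2.35, 2.32 and 2.36 without Dox and 2.63, 2.82 and 2.82 with Dox, without overlap. Ctgf and Cyr61 thus rose while Wwtr1 fell, Yap1 did not pass the test and Lats2, which also counts among the reported targets of YAP and TAZ, fell.

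The promoter of Cyr61 is shown because TEAD factors bind the letters GGAATG or, on the other strand, CATTCC. The stretch is from RefSeq (GRCm38.p6, chr3:145650033-145650138, minus strand). It runs from 153 to 48 bases before the RefSeq start of the gene, with the match in capitals. That start differs slightly from the gene position printed above.
Cyr61 promoter: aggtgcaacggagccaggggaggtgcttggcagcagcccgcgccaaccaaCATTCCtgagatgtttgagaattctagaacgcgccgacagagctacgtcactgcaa
Promoters of 7 members were matched by symbol in the RefSeq table, each with 250 bases before and 50 after the start. Those of Yap1, Wwtr1, Tead3, Lats2 and Cyr61 held either form in at least 1 promoter, and those of Tead2 and Lats1 did not. Of all genes with a RefSeq promoter, 16.6% held it in at least 1 promoter. Ctgf, Tead1 and Tead4 were not matched. The letters are a description and show no binding.

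By mean FPKM without Dox the members ran from Cyr61 and Ctgf through Yap1, Tead1, Tead2, Wwtr1, Lats2, Lats1 and Tead4 to Tead3. In that order Tead1 and Tead2 overlapped in their FPKM, as did Tead2 and Wwtr1, and all other neighbours were apart. With Dox, Yap1 and Tead1 overlapped at 90.4 ± 4.20 and 89.7 ± 3.55 FPKM (SD, n = 3 each). Lats1, Tead4 and Lats2 formed a run of overlapping neighbours at means of 42.0, 39.2 and 38.9 FPKM. Lats2 was the only gene to change places against the others, from above Lats1 and Tead4 to below Lats1 and level with Tead4, while Tead1 kept its place next to Yap1 and came to overlap it.

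**Figure D3:**
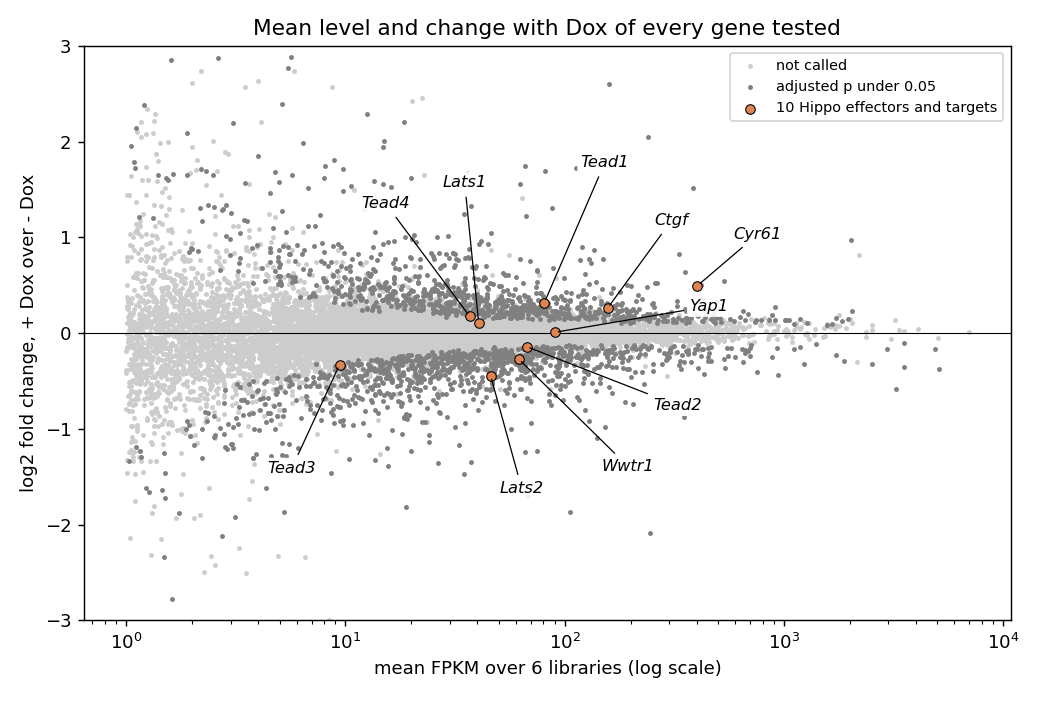
Mean FPKM over 6 libraries (log axis) against the log2 fold change with Dox of the genes tested, with called genes in dark grey, other genes in light grey and the 10 members in orange; 30 genes lie beyond the vertical axis. Cyr61 is the orange point furthest right, at a log2 fold change of 0.49, and Yap1 lies close to the line of no change, at 0.01.

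The genes whose log2 FPKM ran most like Ctgf over the 6 libraries were Pgpep1 (Pearson r = 0.9995), Arhgap44 (r = 0.997) and Spint2 (r = 0.997). Spint2, an inhibitor of serine proteases at the epithelial surface, had 50.3, 54.5 and 52.8 FPKM in cells without Dox and 172.5, 182.6 and 166.7 FPKM in cells with Dox. Those most like Cyr61 were H2afx, Itga3 and Ngfrap1, each with r = 0.998. Itga3, an integrin subunit that binds laminin, had 272.5, 274.2 and 281.4 FPKM in cells without Dox and 412.8, 445.5 and 433.1 FPKM in cells with Dox. Ctgf and Cyr61 had r = 0.990 with each other. The 6 libraries form 2 groups that are apart in each of these genes, so r mostly reads the difference between the groups.

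Besides the members, 33 genes of the kinase cassette, its activators and inhibitors of YAP and TAZ were listed, and 32 were tested. Of these, 5 rose and 3 fell, and 24 did not pass, where 15% of all genes tested were called. The median log2 fold change was -0.01, against 0.00 over all genes. Stk4, which encodes MST1, had 25.5, 24.1 and 24.6 FPKM in cells without Dox and 32.4, 31.5 and 32.8 FPKM in cells with Dox, a clear separation (log2 fold change 0.38, limma adjusted p = 0.00329). Its paralogue Stk3, which encodes MST2, was at 43.1 ± 1.91 and 40.9 ± 1.98 FPKM (SD, n = 3 each), with overlapping groups (adjusted p = 0.421). Sav1, Mob1a and Mob1b, the adaptors of MST and LATS, also did not pass and overlapped between groups.

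Ajuba, a LIM protein that binds and holds back LATS kinases, had 137.6, 142.3 and 137.8 FPKM in cells without Dox and 183.6, 190.1 and 184.7 FPKM in cells with Dox. It rose by 33.6% (log2 fold change 0.42, limma adjusted p = 3.94e-04), whereas its relatives Limd1 and Wtip did not pass. Ptpn14, a phosphatase that binds YAP and is also a reported target of it, had 36.6, 34.1 and 35.8 FPKM in cells without Dox and 25.1, 23.3 and 25.0 FPKM in cells with Dox. It fell by 31.0% (log2 fold change -0.54, adjusted p = 0.00128), and its 3′ UTR of 6640 bases held 3 matches to the seed. Ajuba, Stk4 and Ptpn14 were called in all 15 alternatives.

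Nf2, which encodes the membrane scaffold Merlin that brings LATS to the membrane, had 67.0, 67.5 and 73.8 FPKM in cells without Dox and 83.6, 81.4 and 85.7 FPKM in cells with Dox. The log2 fold change was 0.27 (adjusted p = 0.0134), and the adjusted p was 0.0561 without replicate 3 with Dox and 0.0537 with the unmoderated model. The kinase gene Stk38 fell (log2 fold change -0.33, adjusted p = 0.0152), with an adjusted p of 0.0509 without that same replicate and 0.0686 with the unmoderated model. Frmd6, Csnk1d and Map4k4 passed with smaller changes (log2 fold changes 0.20, 0.12 and -0.19, adjusted p = 0.0344, 0.0365 and 0.0205). Frmd6 and Csnk1d lost the call when any 1 of the 6 libraries was left out, with adjusted p-values of up to 0.0982 and 0.105, and Map4k4 lost it in 4 of these 6 analyses, with up to 0.0641. Over the 15 alternatives Frmd6 lost the call in 9, Csnk1d in 10 and Map4k4 in 7. Without the trend the adjusted p of these 3 was 0.0648, 0.120 and 0.0620, and in the unmoderated model that of Frmd6 was 0.0719 and that of Map4k4 0.0592. A pseudogene, Gm5780, shares 40.0% of the longest Frmd6 transcript. With replicate 3 with Dox left out, 4 genes of this list were called.

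Junction and polarity proteins feed cell contact into the pathway, and of 14 tested genes 6 rose, 1 fell and 7 did not pass. Over all genes tested 7.06% were called higher and 7.97% lower. Llgl2, a basolateral polarity gene of epithelia, had 21.7, 19.9 and 20.3 FPKM in cells without Dox and 46.8, 52.8 and 47.6 FPKM in cells with Dox. It more than doubled (2.37-fold, log2 fold change 1.24, limma adjusted p = 8.42e-05), while its paralogue Llgl1 overlapped between groups. Dlg1, a scaffold of the basolateral side, rose less (log2 fold change 0.23, adjusted p = 0.00467).

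Crb3, the apical Crumbs protein of epithelia, is listed at 0 in the 3 libraries without Dox and was at 4.31, 2.60 and 2.06 FPKM with Dox, so no fold change is given. It passed the filter only through the libraries with Dox and so had to differ, and its place among the 6 that rose lends the count no support. Its partner gene Inadl had 9.35, 3.19 and 2.61 FPKM in cells without Dox and 12.4, 13.9 and 17.1 FPKM in cells with Dox. Replicate 1 without Dox was far above the other 2, and the adjusted p of 0.0413 rose to between 0.0877 and 0.123 when replicate 2 or 3 without Dox or any replicate with Dox was left out. Without replicate 1 without Dox the limma adjusted p fell to 0.00134 and the log2 fold change went from 1.72 to 2.27. In all, Inadl lost the call in 9 of the 15 alternatives, with an adjusted p of 0.157 in the unmoderated model. Ctnna1, which encodes alpha-catenin, was at 277.3 ± 1.75 and 303.1 ± 3.21 FPKM (SD, n = 3 each, limma adjusted p = 0.0175), and its adjusted p was up to 0.0741 in the 4 of 6 analyses with 1 library left out that lost the call, and 0.0871 without the trend. Fat4, an atypical cadherin, was the one that fell, from 27.9, 27.2 and 26.9 FPKM to 17.3, 16.0 and 16.6 FPKM (log2 fold change -0.72, adjusted p = 4.31e-04).

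**Figure D4:**
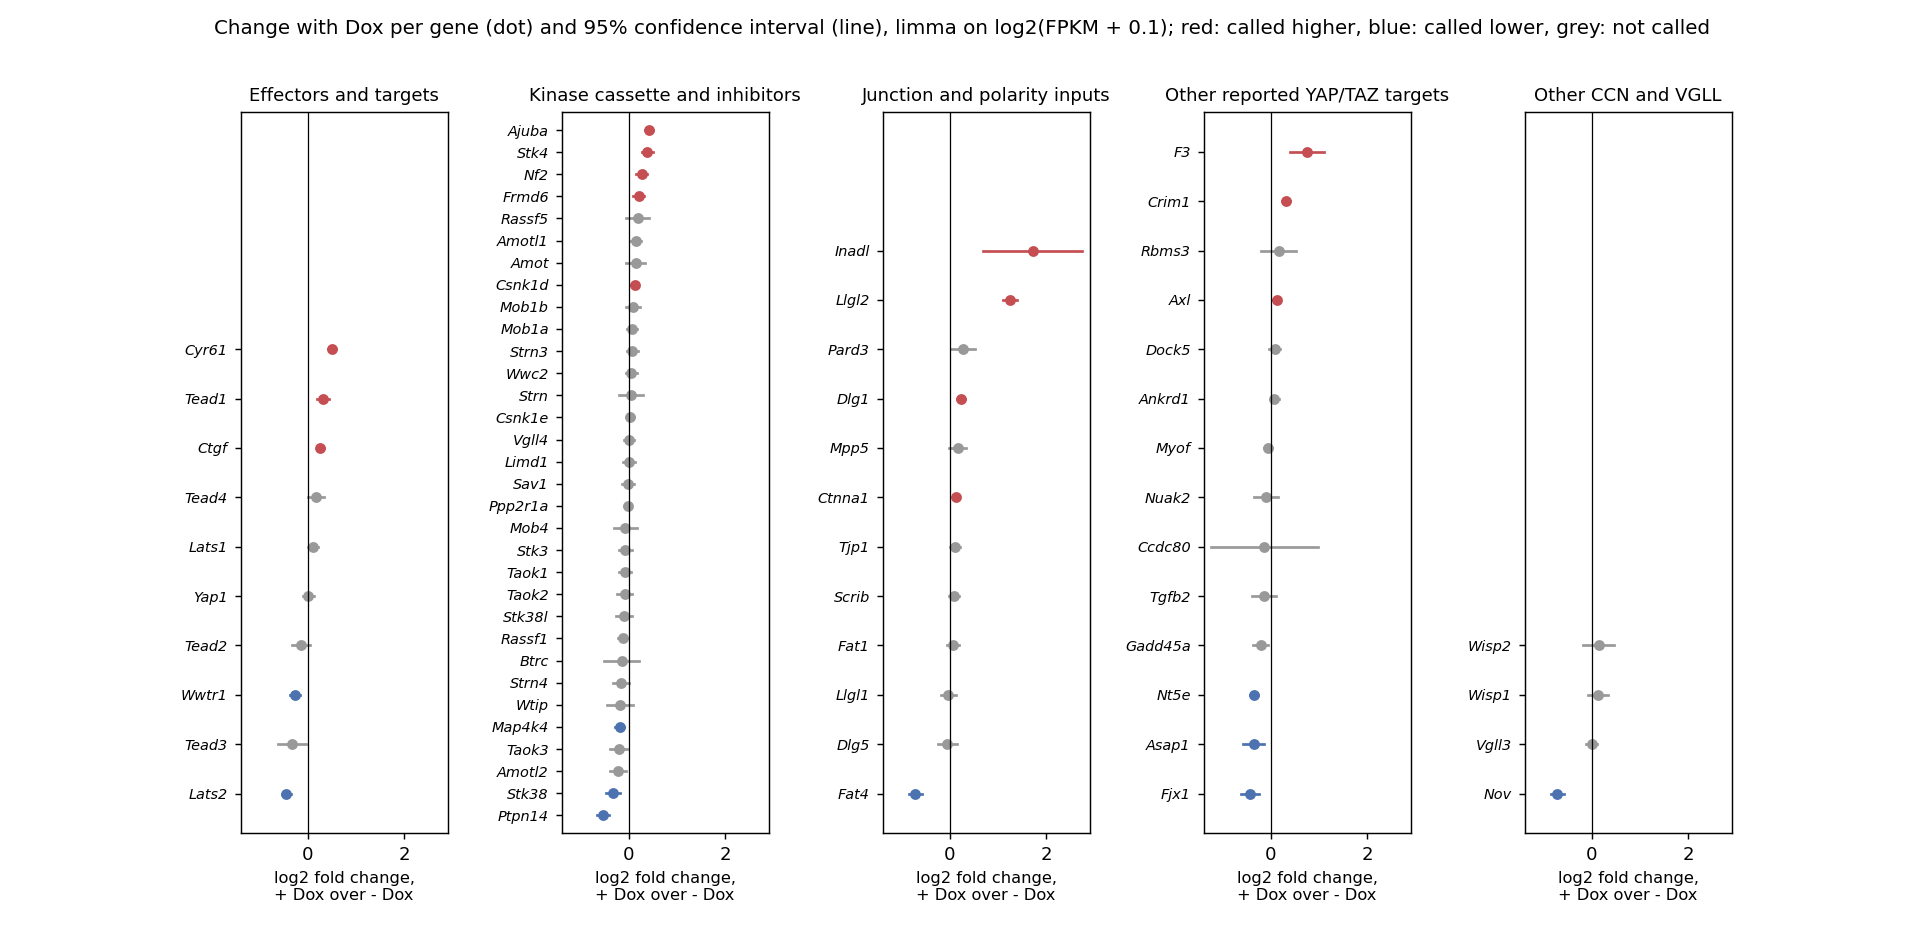
Log2 fold change with Dox (dots) and 95% confidence interval (lines) of genes tested in each list, with a gene of 2 lists drawn once and Crb3 among those left out; red genes were called higher, blue genes lower and grey genes not called. Red and blue dots occur together in 4 of the panels, and in the last Nov is the only coloured gene.

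Reported targets of YAP and TAZ were listed as 22 genes, Lats2, Ctgf and Cyr61 among them, of which 19 were tested. Of these 5 rose and 5 fell, beside 15% of all genes tested called in either direction, and the median log2 fold change was -0.10, against 0.00 over all genes. Igfbp3 and Foxf2 are listed at 0 in all 6 libraries and Arhgef17 was below the filter. Crim1, a membrane protein that binds growth factors, had 224.9, 226.4 and 226.0 FPKM in cells without Dox and 270.5, 289.7 and 280.8 FPKM in cells with Dox (log2 fold change 0.31, limma adjusted p = 0.00139). Nt5e, which encodes the ectoenzyme CD73, went the other way, at 161.4, 159.1 and 160.3 FPKM in cells without Dox and 130.8, 122.2 and 123.5 FPKM in cells with Dox (log2 fold change -0.35, adjusted p = 0.00126). Both genes had tight groups without overlap and kept their calls in all 15 alternatives.

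F3, which encodes tissue factor, had 4.03, 4.68 and 4.29 FPKM in cells without Dox and 7.23, 8.87 and 6.19 FPKM in cells with Dox. Its log2 fold change was 0.75 (limma adjusted p = 0.0180), and the adjusted p was 0.0516 to 0.0546 when replicate 1 or 3 without Dox or replicate 1 or 2 with Dox was left out, and 0.0731 in the unmoderated model. Fjx1 had 9.12, 8.72 and 9.63 FPKM in cells without Dox and 6.68, 6.70 and 6.82 FPKM in cells with Dox. Its log2 fold change was -0.44 (adjusted p = 0.0145), and the adjusted p was 0.0507 when either replicate 3 without Dox or replicate 2 with Dox was left out. Axl, a receptor tyrosine kinase, and Asap1 passed narrowly (log2 fold changes 0.12 and -0.35, adjusted p = 0.0342 and 0.0452). Each lost the call in 9 of the 15 alternatives, with adjusted p of up to 0.134 and 0.158. With replicate 3 without Dox or replicate 2 with Dox left out, 6 genes of the list were called.

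Ankrd1, another common readout of YAP, did not follow Ctgf and Cyr61 past the threshold. It had 108.6, 104.6 and 112.9 FPKM in cells without Dox and 115.8, 112.4 and 113.9 FPKM in cells with Dox, and the groups overlapped (log2 fold change 0.07, 95% confidence interval -0.02 to 0.16, adjusted p = 0.301). Amotl2, also on the list of reported targets, encodes a junction protein that binds YAP. Amotl2 had 103.6, 104.9 and 105.2 FPKM in cells without Dox and 92.9, 96.8 and 80.1 FPKM in cells with Dox. The groups did not overlap, but the log2 fold change of -0.22 (95% confidence interval -0.39 to -0.06) did not pass (limma adjusted p = 0.0779). These 2 genes were chosen after their values were seen.

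Of the other CCN family and VGLL cofactor genes, 4 of 7 were tested and 1 was called, where 15% of all genes tested were called (7.97% lower). Nov, the CCN3 gene, had 21.8, 22.7 and 22.1 FPKM in cells without Dox and 13.0, 13.5 and 13.9 FPKM in cells with Dox. It fell by 39.4% (log2 fold change -0.72, limma adjusted p = 5.08e-04), opposite in direction to Ctgf and Cyr61. Wisp1 and Wisp2 were at 15.0 ± 0.893 and 8.91 ± 1.64 FPKM without Dox (SD, n = 3 each) and did not pass. Vgll3, a cofactor that binds TEAD, was at 36.0 ± 0.639 FPKM without Dox and 35.8 ± 1.23 FPKM with Dox (SD, n = 3 each), with overlapping groups. Wisp3 and Vgll1 are listed at 0 throughout and Vgll2 was below the filter.

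Matches to the seed were not confined to genes that fell. In the kinase list 8 of 33 genes held at least 1 match, of which Ptpn14 and Map4k4 fell, Nf2 rose and 5 did not pass. Ptpn14 and Map4k4 each had 1 match followed by A. No match of Nf2 or of the 5 that did not pass was followed by A. Of the 17 reported targets outside the earlier lists, 5 held a match. Asap1 (2 matches, 1 of them followed by A) and Nt5e (1 match, not followed by A) fell, 1 did not pass and 2 were not tested. The junction list had a match in 1 of 15 genes, which did not pass, and the CCN and VGLL list in 0 of 7. Of all tested genes with a 3′ UTR, 16.1% held a match. Among all tested genes with a 3′ UTR, 17.3% of those with a match were called lower and 4.15% higher, against 7.33% and 8.53% of those without. Genes with a match had longer 3′ UTRs, with a median of 2524 bases against 1009. Wwtr1, Nov, Fat4, Fjx1, Stk38 and Vim fell without a match in their longest annotated 3′ UTR.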

How the data were processed

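Total RNA of the 6 cultures was made into stranded libraries and sequenced as single 50-base reads; the authors mapped them with gSNAP to GRCm38.p6 (their methods also name an FVB/NJ assembly) and obtained FPKM per gene with Cufflinks (versions not given in the sources used here). The deposited FPKM of each library were used as they stand. Columns with group means, fold changes, p and q of the authors' own comparison were not used. The table has 43611 rows; 63 repeats of an identifier were dropped, keeping the row with the highest mean, and 6 placeholder cells in 4 genes, none a member, were read as missing. Whether counting used strand is not stated, so reads of antisense genes, which 7 members have, cannot be told apart.

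The 12879 genes averaging 1 FPKM or more entered limma 3.58.1 (R 4.3.3, with a trend) as log2(FPKM + 0.1), group as the only term, Benjamini-Hochberg adjustment over all genes and a threshold of 0.05; list genes below the filter came from the same model without it (20513 genes). Fold changes on this scale understate changes of low genes. The model was tested on simulated data. Members and lists were chosen with earlier results of these data known. Named genes are the 10 members, called genes of each list (up to 10 by absolute log2 fold change) and the 3 genes most like each of Ctgf and Cyr61, which are described without a p and were not run through the alternatives; 1 called gene of the junction list is counted but not reported here. Alternatives were other pseudocounts (1, 0.01), no filter or a minimum of 5 FPKM, quantile or median scaling, no trend, an unmoderated linear model, the replicate block and leaving out each library. Positions and 3′ UTRs are from GENCODE M21 (GRCm38), and shared sequence from BLAST 2.17.0 (at least 95% identity over 50 bases). Python 3.11.15, numpy 2.4.6, pandas 2.3.3 and matplotlib 3.10.9 were used.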

Additional observations from a re-analysis of the deposited data

How the results depend on the processing

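Of the 30 named genes of the lists that were called, 17 were called in all 15 alternatives (Crb3 in the 13 that gave it a value) and 13 lost the call in at least 1, and none changed sign. Crb3 passed the filter only through the libraries with Dox, so its place among the 17 lends that count no support. The count of called members was 5 in 14 alternatives and 4 with the unmoderated linear model. With 1 library left out, the log2 fold change of Yap1, which was not called, ran from -0.0232 to 0.0437, turning to -0.00661 and -0.0232 without replicate 3 without Dox and replicate 2 with Dox. In the same fits the count over all genes, 1935 with all 6 (909 higher, 1026 lower), ran from 1069 to 1384 (higher 479 to 688, lower 590 to 709), that of the kinase list from 4 to 6 and that of the reported targets from 6 to 9; these fits have fewer samples. The unmoderated model called 598 genes higher. The kinase list had 5 genes called without the trend and 4 with the unmoderated model; the cause was not tested. No pairing by replicate number was seen. Deviations of same-numbered libraries had correlations of 0.0287, 0.0359 and -0.00759 across genes, and those of differently numbered libraries ran from -0.0511 to 0.0235. Low correlations cannot exclude that cultures were plated or handled in pairs. With the replicate block 1337 genes were called in all, 5 of the kinase list and 5 members. Read depth is unknown, so counting error at low FPKM, as for Crb3, cannot be given.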
